A study of Mus musculus with 9 samples.

Results

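The cells described here were neuroblasts of the subventricular zone (SVZ) in which at least 1 molecule of Prokr2 or Foxp2 mRNA was counted. They were taken from single-cell libraries of the SVZ at 3 ages by a rule on unique molecular identifiers (UMIs), each of which stands for 1 captured mRNA molecule. A cell had to hold 1500 or more UMIs with at most 10% of them mitochondrial, a UMI of Dcx, a UMI of Prokr2 or Foxp2, and no UMI of Mki67, Top2a, Pdgfra or Eomes. The rule found 367 cells among 2948 SVZ barcodes, of which 2297 passed the quality limits and 1035 also passed the Dcx requirement and the 4 exclusions. Since measured values chose them, the levels of these genes are given as a description and were not tested.

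The mice were heterozygote Dcx-GFP animals, in which the Dcx promoter drives green fluorescent protein (GFP), and GFP+ cells were isolated by fluorescence-activated cell sorting. Tissue of 4 to 5 mice was pooled for each region and age, so that the adult (3 months), middle-aged (14 months) and aged (24 months) SVZ each gave 1 library. There is thus no replicate within an age, and no p-value is given between ages. The SVZ libraries held 4487843 UMIs in 899 barcodes (adult), 4861822 in 1116 (middle-aged) and 5247802 in 933 (aged), and any 2 of them shared at most 2 cell barcodes.

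Neuroblasts born in the SVZ travel in chains through the rostral migratory stream and reach the olfactory bulb (OB). There most become inhibitory interneurons that make GABA. Dcx (doublecortin) stabilises microtubules in migrating neuroblasts, Prokr2 is the G protein-coupled receptor for the secreted attractant prokineticin 2, which guides them towards the OB, and Foxp2 is a forkhead transcription factor of several neuronal types. In mm10, Prokr2 (ENSMUSG00000050558) lies on the minus strand at chr2:132337733-132385447 and Foxp2 (ENSMUSG00000029563) on the plus strand at chr6:14901349-15441977.

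Prokr2 or Foxp2 neuroblasts made up a sizeable share of SVZ neuroblasts at each age. In the adult SVZ they were 101 of 328 Dcx cells past the limits, or 30.8% (95% exact binomial interval 25.8 to 36.1). In the middle-aged SVZ they were 159 of 404, or 39.4% (34.6 to 44.3). In the aged SVZ they were 107 of 303, or 35.3% (29.9 to 41.0). The 3 intervals overlapped, and like all intervals given here they cover counting error only. With every cell thinned to 1500 UMIs the same gate kept 19.6%, 28.7% and 23.6% of the Dcx cells in the same order. With at least 3000 UMIs per cell the shares were 27.8%, 27.7% and 30.5%, so that the middle-aged share was no longer the highest.

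**Figure D1:**
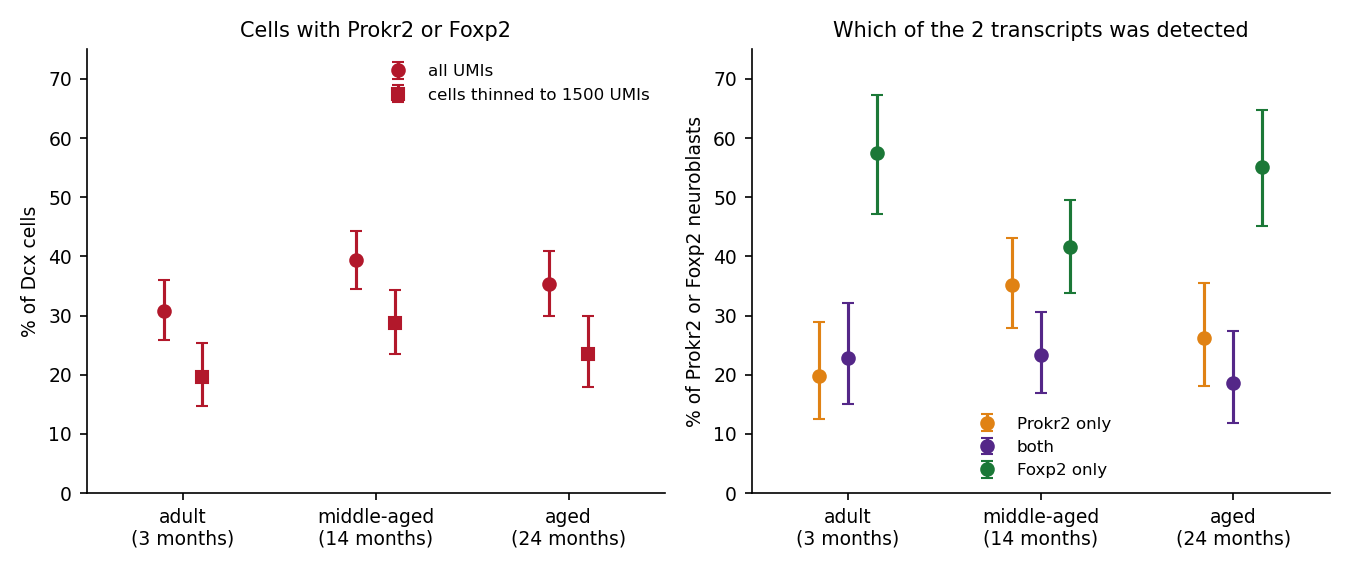
Left, the share of SVZ Dcx cells with Prokr2 or Foxp2 (y axis, %) in the library of each age (x axis), with all UMIs (circles) and after thinning to 1500 UMIs per cell (squares). Right, the share of these neuroblasts in which Prokr2, Foxp2 or both were detected. Bars are 95% exact binomial intervals of 1 library, and the Prokr2-only share reads 19.8%, 35.2% and 26.2% at 3, 14 and 24 months.

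Foxp2 was found in more of the cells than Prokr2. Over the 3 libraries 183 cells held Foxp2 only, 104 held Prokr2 only and 80 held both. From the youngest to the oldest library, Foxp2-only cells numbered 58, 66 and 59, Prokr2-only cells 20, 56 and 28, and cells with both 23, 37 and 20. Prokr2 was detected in 30.4% (24.9 to 36.4) of the 263 Dcx cells with Foxp2 and in 13.5% (11.1 to 16.1) of the 772 without it. These shares are over pooled cells, describe genes of the rule and were not tested. In the adult library alone they were 28.4% (18.9 to 39.5) and 8.10% (5.02 to 12.2). In the middle-aged library they were 35.9% (26.7 to 46.0) and 18.6% (14.4 to 23.5), and in the aged library 25.3% (16.2 to 36.4) and 12.5% (8.47 to 17.6). These intervals cover counting error over cells within a library. Whether they overlap therefore does not decide if the transcripts occur together. Cells with both had median UMI counts of 3144, 2590 and 3146.5 and Foxp2-only cells of 3638.5, 3030 and 3651, below the 4012, 3451.5 and 4118 of all Dcx cells.

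The number of molecules behind each cell was small. In 190 of the 367 cells the rule rested on a single UMI of Prokr2 or Foxp2, and the most seen in a cell was 5 UMIs of Prokr2 and 8 of Foxp2. In oligodendrocyte precursors of the same libraries, cells with Pdgfra and no Dcx that served as a measure of free RNA, Prokr2 was found in 0 of 94 cells, which allows a share of up to 3.19% by a floor of 3 counts, and Foxp2 in 2 of 94. These precursors were deeper, with median UMI counts of 5347.5, 4718 and 5409 against 4012, 3451.5 and 4118 in the Dcx cells, of which 17.8% held Prokr2 and 25.4% Foxp2. Both precursors with Foxp2 came from the adult library. There they were 2 of 20, or 10.0% (1.23 to 31.7), beside 24.7% of its Dcx cells (20.1 to 29.7).

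Around the limits, the shallowest cell kept held 1523 UMIs, and 37 cells that met every other condition lay below 1500, the deepest of them at 1498. Only 2 cells were lost to the mitochondrial limit. The gene exclusions removed 77 cells, nearly all of them (72) for Mki67 or Top2a.

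The genes of the rule had the following levels, which the choice of cells fixed in part. Dcx stood at 640.5, 655 and 659 CPM (UMIs of a gene per 1000000 UMIs of the summed cells) from the youngest to the oldest library, the order used for all values below, against 562, 588 and 537 in the reference neuroblasts described next, where it was also required. Prokr2 stood at 151, 237 and 198 and Foxp2 at 372, 337 and 336 CPM, both at 0 in the reference by construction. Gad1, an enzyme that makes GABA, was detected in 62, 109 and 68 of the cells, although the rule did not ask for it.

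Markers of most other cell types were near absent. No UMI was found of any of 6 ependymal markers or of Tbr1, Slc17a6 and Slc17a7, which mark excitatory neurons. Of 9 microglial genes 7 were at 0, including C1qa, Csf1r and Tyrobp, and the summed list lay at 2.74, 14.0 and 7.82 CPM against 6.90, 18.3 and 15.9. Of 8 oligodendrocyte genes 3 were at 0, Mog and Mag among them, and Cnp led with 35 UMIs. Of 11 astrocyte and stem cell genes 6 were at 0, including Gfap and Aqp4, and the summed list lay at 73.9, 62.1 and 99.0 CPM against 96.6, 70.5 and 79.5 in the reference. Of 10 genes of striatal projection neurons 3 were at 0. Their summed list lay above the reference in each library, at 43.8, 409 and 54.7 CPM against 17.9, 24.0 and 24.6. The middle-aged value includes the cell described next.

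One cell stood apart. A middle-aged cell with 9450 UMIs, the most of all the cells, carried 120 UMIs of Penk, 34 of Ppp1r1b and 4 of Adora2a, genes of striatal projection neurons, beside 1 UMI of Foxp2 and 1 of Dcx. Every Penk, Ppp1r1b and Adora2a UMI among the 367 cells came from it. Penk is therefore not reported as a result below. The main counts of genes higher and lower that include it are followed by those without this cell. Counts under other settings may include it.

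To show how these cells differ from their neighbours, they were compared with reference neuroblasts, SVZ cells past the same limits with Dcx and Gad1 and with neither Prokr2 nor Foxp2. There were 154, 169 and 143 of them at 3, 14 and 24 months. UMIs were summed over the cells of each class in each library, and the 6 sums were tested with edgeR's quasi-likelihood test with the library as a block, so that each library served as its own control. Of 6884 genes tested, 284 were higher in Prokr2 or Foxp2 neuroblasts (4.13% of those tested) and 248 were lower (3.60%) at an adjusted p under 0.05. Of these 532 genes (7.73%), 520 moved the same way in all 3 libraries. Without the striatal cell 294 were higher and 235 lower. Without the library block 109 were higher and 79 lower. DESeq2 on the same sums called 43 (0.625%) and 34 (0.494%) genes, all of them among the edgeR calls, and each group below gives its count by both tools. The cells were shallower than the reference, with median UMI counts of 3314, 2888 and 3322 against 4541, 3877 and 4825, and with all cells thinned to 1500 UMIs 90 genes were higher and 89 lower. The reference required Gad1 and the Prokr2 or Foxp2 neuroblasts did not, and against a reference with or without Gad1 455 were higher and 430 lower. A reference cell with no UMI of Prokr2 or Foxp2 may still express them, so the classes differ by detection.

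**Figure D2:**
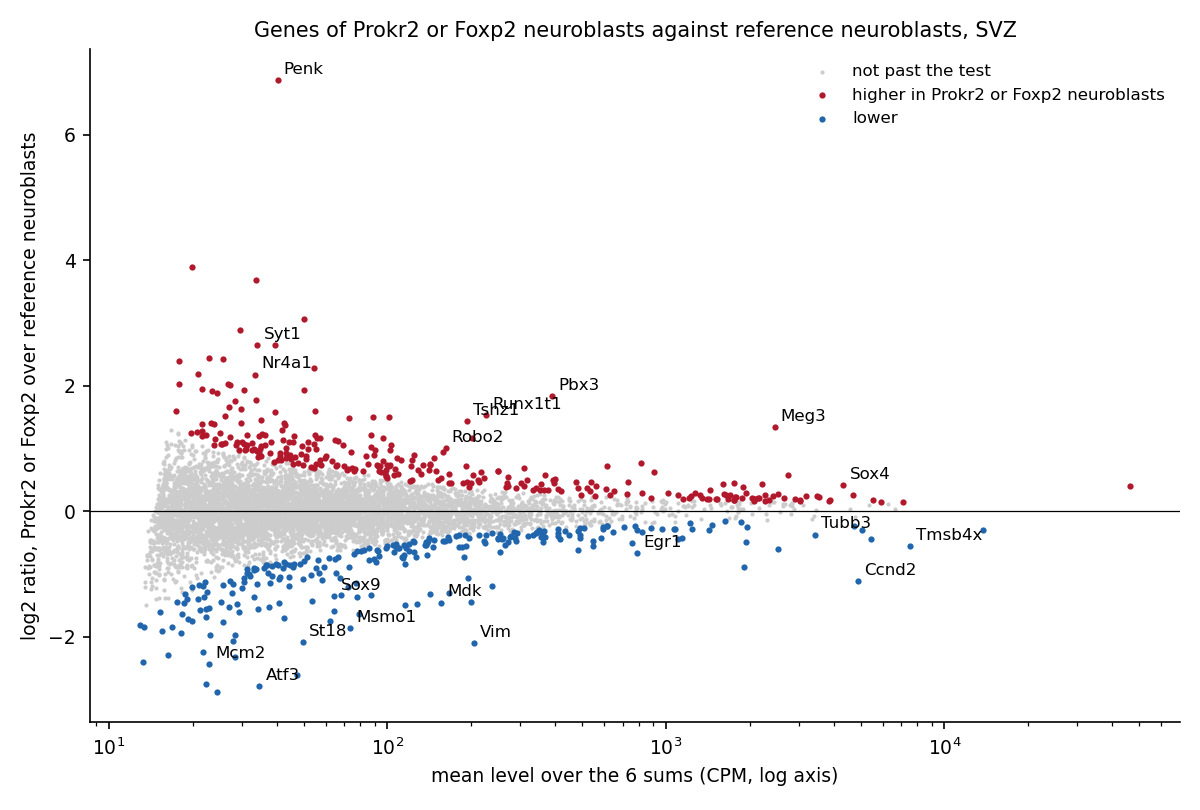
Each point is 1 of the 6884 genes tested, with its mean level over the 6 sums (x axis, CPM, log scale) and its log2 ratio of Prokr2 or Foxp2 neuroblasts over reference neuroblasts (y axis). The 284 red and 248 blue genes passed edgeR's test. Ccnd2 and Meg3 stand out at high levels, and Penk, at the top, came from 1 cell.

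The transcription factors Pbx3 and Tshz1 were among the 12 largest increases. Pbx3 (ENSMUSG00000038718, chr2:34171457-34373142 in mm10), a homeodomain factor, stood at 575, 589 and 649 CPM in the 3, 14 and 24 month Prokr2 or Foxp2 neuroblasts and at 120.1, 159 and 243 in the reference. The 2 classes did not overlap, and the log2 ratio was 1.84 ± 0.11 (SE, n = 3 libraries, adjusted p = 2.42e-14). After thinning, Pbx3 was found in 55.4%, 53.5% and 61.7% of the cells against 14.3%, 21.3% and 25.2% of the reference.

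Meis2, a homeodomain partner of Pbx proteins, stood at 1867, 1660 and 1941 CPM against 1442, 1296 and 1391 (log2 ratio 0.43 ± 0.05, adjusted p = 4.03e-07). It was higher in every library, by less than Pbx3. Tshz1, a zinc finger factor needed for OB interneurons to settle, stood at 315, 255 and 271 CPM against 75.9, 103 and 139 (1.43 ± 0.14, adjusted p = 7.36e-09), again without overlap.

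Not all factors of the lineage rose. Of 40 interneuron transcription factors listed, 27 were measured well enough to test, of which 6 were higher, 4 lower and 17 did not pass. DESeq2 called 4 higher, Pbx3, Meis2 and Tshz1 among them, and none lower. Tshz2 (0.90 ± 0.15) and Etv1 (0.40 ± 0.10) were higher by edgeR alone, and Etv1 did not pass without the adult library. Among those lower, St18 stood at 5.47, 32.1 and 13.0 CPM against 93.9, 55.0 and 98.3 (log2 ratio -2.09 ± 0.32, adjusted p = 2.77e-05), a value that moved to -3.29 without the middle-aged library. Prox1 (-0.73), Gsx2 (-1.45) and Dlx2 (-0.29) were also lower, of which Prox1 and Dlx2 did not pass after thinning, nor Dlx2 without the middle-aged library. Dlx1, a neighbour of Dlx2 in the genome, gave 742, 829.8 and 787 against 795, 824 and 704 and did not pass (0.05 ± 0.07). The median log2 ratio of the 27 was -0.07, beside -0.000355 over all genes tested, where 4.13% were higher and 3.60% lower by edgeR.

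The other large increases were in genes of several roles. Meg3 (ENSMUSG00000021268), a long noncoding RNA of neurons from an imprinted locus, stood at 2901, 3582 and 4028 CPM against 1270, 1496 and 1451 (log2 ratio 1.34 ± 0.05, adjusted p = 1.14e-19). Runx1t1, a transcriptional corepressor, stood at 279, 377 and 344 against 81.4, 138 and 135 (1.53 ± 0.12, adjusted p = 1.66e-11). Neither overlapped the reference. Bambi, a decoy receptor that dampens BMP and TGF-beta signals, stood at 115, 158 and 169 against 59.4, 26.8 and 76.7 (1.51 ± 0.20), and Socs2, a brake on cytokine and growth hormone signals, at 98.5, 122 and 143 against 41.4, 59.2 and 59.3 (1.21 ± 0.18). Ubash3b (1.49), Plekha1 (1.48), Fam171b (1.16), Dusp26 (1.16), Pcbp3 (1.11) and Sept6 (1.06) completed the 12 largest increases among genes with at least 200 UMIs. Bambi, Pcbp3 and Sept6 did not pass DESeq2, Dusp26 did not pass after thinning, and Pcbp3 did not pass without the aged library.

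**Figure D3:**
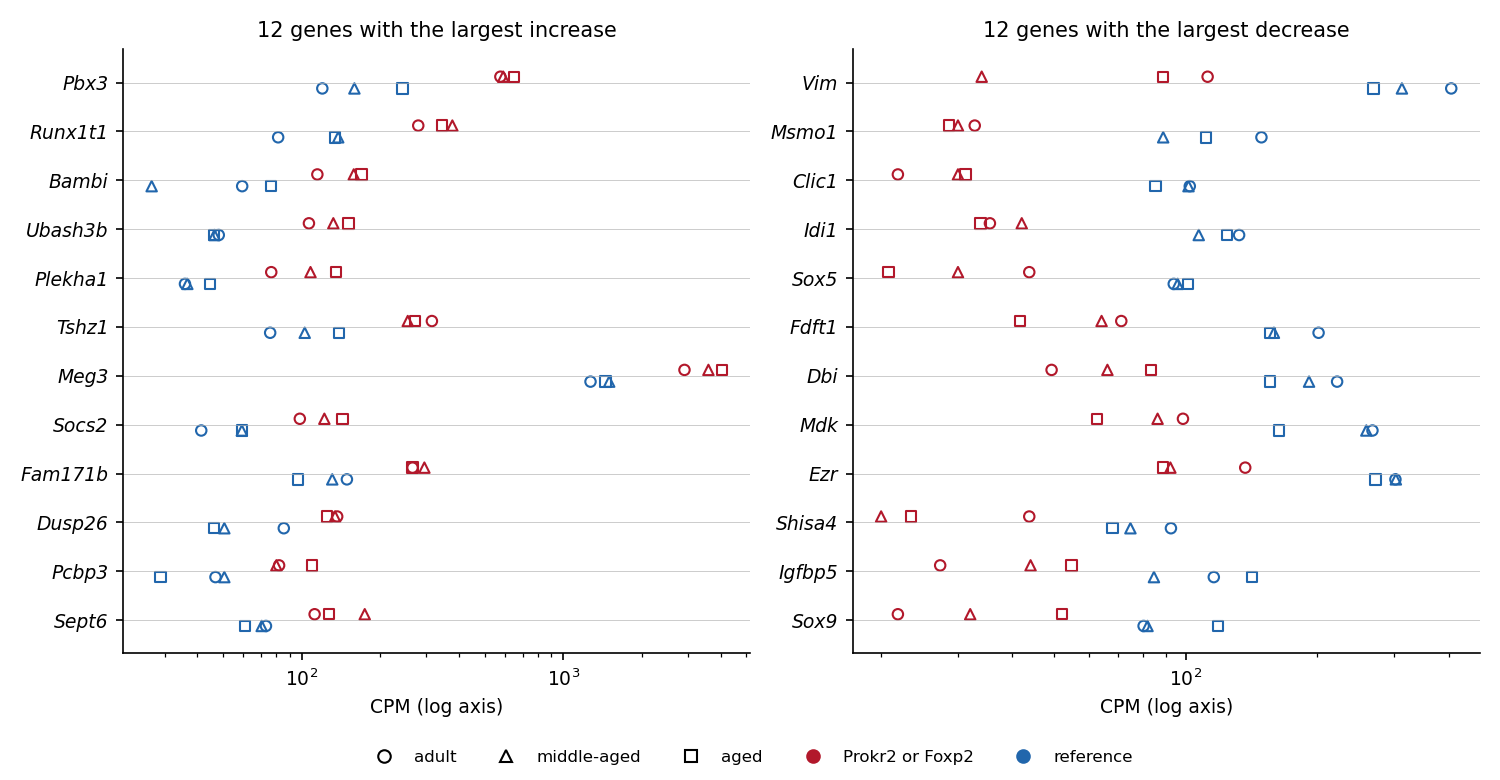
Levels of the 12 genes with the largest increase (left) and the 12 with the largest decrease (right) among called genes with at least 200 UMIs that moved one way in all libraries (x axis, CPM, log scale). Red marks are Prokr2 or Foxp2 neuroblasts and blue marks reference neuroblasts, with 1 mark per library (circle adult, triangle middle-aged, square aged). In all 24 genes the 3 red marks lie to 1 side of the 3 blue ones, as they do in 8.13% (above) and 10.5% (below) of the genes tested.

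Genes of the synapse and of excitability were higher where they changed. Of 37 genes of synapse and neuron maturation, 20 were tested, 8 were higher, none was lower, and the median log2 ratio was 0.37. Over all genes tested 4.13% were higher and 3.60% lower by edgeR, and 0.625% and 0.494% by DESeq2. Syt1, the calcium sensor of transmitter release, stood at 82.1, 50.1 and 44.3 CPM against 6.90, 7.05 and 14.5 (2.65 ± 0.33, adjusted p = 6.71e-07), and was the 1 gene of the 8 that DESeq2 also called. Snap25, part of the vesicle fusion machinery, gave a log2 ratio of 1.06 ± 0.21. Ank3 (1.03), Grin2b (0.86), Gria2 (0.45), Rbfox2 (0.43) and Celf4 (0.39) were also higher, of which Ank3, Grin2b and Gria2 did not pass without the middle-aged library, Grin2b not without the adult one and Gria2 not without the aged one. Snap25, Ank3, Gria2, Rbfox2 and Celf4 did not pass after thinning, where Celf4 gave 0.12. In Snap25, 1 cell held 19.3% of the UMIs of Prokr2 or Foxp2 neuroblasts.

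Among ion channels 8 of 27 listed were tested, 2 were higher and none lower. Scn3a, a sodium channel of developing neurons, stood at 41.1, 58.1 and 54.7 CPM against 20.7, 15.5 and 21.7 (1.45 ± 0.27, adjusted p = 0.000462). Kcnk2, a leak potassium channel, gave 0.67 ± 0.16 and did not pass without the middle-aged library or after thinning. Neither passed DESeq2. Genes of GABA handling other than Gad1 did not pass: Gad2 stood at 413, 499 and 341 against 444, 447 and 428, and none of the 7 tested was called by either tool, where 4.13% of all genes were called higher and 3.60% lower. Of 19 genes that mark subtypes of olfactory interneurons 3 could be tested, among which Synpr was higher (0.73 ± 0.18) but not without the aged library (0.28), after thinning or by DESeq2. The striatal gene Pde10a, a phosphodiesterase, stood at 30.1, 54.1 and 46.9 CPM against 13.8, 14.1 and 11.6 (1.75 ± 0.32), with 7 of its 56 UMIs in the striatal cell. Without that cell it gave 1.59 and passed, though it did not pass DESeq2.

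Receptors for guidance cues changed in a few members. Of 30 listed 13 were tested, 3 were higher and 1 lower, where 4.13% and 3.60% of all genes were. Robo2, a receptor for Slit repellents, stood at 224, 218 and 201 CPM against 115, 116 and 96.9 (1.00 ± 0.13, adjusted p = 1.19e-06) and was the 1 that DESeq2 called. Plxna4, a semaphorin coreceptor (0.72 ± 0.16), and Erbb4, the neuregulin receptor (0.86 ± 0.24), were also higher, and Epha4, an ephrin receptor, was lower (-0.65 ± 0.16). Without the middle-aged library Erbb4 and Epha4 did not pass, nor did Epha4 without the aged library, and after thinning none of these 3 passed. None of 5 guidance ligands tested was called by either tool, a list too short to set against the 4.13% and 3.60% of all genes.

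Of the partners of Prokr2, the ligands and the second receptor were barely detected. Prok1 had 1 UMI, Prok2 2 UMIs and Prokr1 2 UMIs over the 367 cells. Downstream, Plcb4, a phospholipase C that Gq proteins activate, stood at 46.5, 60.1 and 78.2 CPM against 17.9, 21.1 and 31.8 (1.41 ± 0.24, adjusted p = 0.000142). The G protein subunits Gnai2 (-0.40 ± 0.09) and Gnas (-0.18 ± 0.06) were lower, and Gnaq and Gna11 did not pass. With at least 3000 UMIs per cell Plcb4 gave 0.91 and did not pass. None of the 5 tested passed DESeq2, and Gnas did not pass without the adult or the middle-aged library. Of the other Foxp genes, Foxp1 gave 0.20 ± 0.20 and did not pass, Foxp4 had 7 UMIs and Foxp3 none.

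Genes of neuroblast identity changed in both directions. Of 19 neuroblast genes tested 3 were higher and 5 lower, of which DESeq2 called 1 and 3. Of all genes tested, 4.13% were higher and 3.60% lower by edgeR. Tubb3, a tubulin of neurons, stood at 3298, 2974 and 2556 CPM against 4276, 3971 and 3428 (-0.37 ± 0.04, adjusted p = 9.11e-08), with Tubb5 (-0.44 ± 0.04) and Tuba1a (-0.30 ± 0.03) lower too. Against a reference with or without Gad1, Tubb3 gave -0.22 and Tuba1a -0.16, and neither passed without the library block. Sox4, a transcription factor of young neurons, stood at 4828, 4700 and 5179 against 3637, 3665 and 4019 (0.41 ± 0.04, adjusted p = 4.72e-09). Stmn1, a microtubule destabiliser, gave 6980, 7176 and 5836 against 6803, 7447 and 5776 and did not pass (0.03 ± 0.04).

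Of 24 genes of the migration machinery tested 4 were higher and 5 lower, and DESeq2 called 2 of those lower. The shares over all genes were 4.13% higher and 3.60% lower by edgeR. Tmsb4x, which binds actin monomers, stood at 6202, 6103 and 5630 CPM against 10024, 9417 and 7685 (-0.56 ± 0.04, adjusted p = 8.87e-12). The Dcx-related kinases Dclk2 (-0.73 ± 0.12) and Dclk1 (-0.44 ± 0.11) were lower, while Mapt, the axonal protein tau (0.45 ± 0.10), and Cdh2, N-cadherin (0.52 ± 0.11), were higher. After thinning neither Mapt nor Cdh2 passed. Dclk1 did not pass without the adult library, in cells with Gad1 (-0.28) or with at least 3000 UMIs per cell.

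Genes of progenitors were lower where they changed. Of 20 early progenitor genes 13 were tested, 9 were lower and none was higher, with a median log2 ratio of -0.92. DESeq2 called 3 of the 9, where 3.60% of all genes were lower by edgeR and 0.494% by DESeq2. Vim (ENSMUSG00000026728), the intermediate filament of neural stem cells, stood at 112, 34.1 and 88.6 CPM against 406, 313 and 269 (-2.10 ± 0.17, adjusted p = 2.97e-11). Most of its UMIs lay in cells with a single UMI of Prokr2 or Foxp2, which stood at 181, 51.6 and 147 CPM, and cells with 2 or more stood at 34.8, 9.61 and 26.7. Limited to the latter, the log2 ratio was -3.78. Sox9, a stem cell transcription factor, stood at 21.9, 32.1 and 52.1 against 80.1, 81.7 and 119 (-1.36 ± 0.22, adjusted p = 6.81e-05). Hes5, a Notch target (-1.08), Notch1 (-0.92), Sox2 (-0.38) and Insm1 (-1.0) were lower by edgeR alone. Hes5 rested on 39 UMIs, 35.9% of them in 1 cell, and gave -2.59 in cells with Gad1 and -1.98 against a reference with or without Gad1. Without the adult library none of these 4 passed, and without the middle-aged one neither Notch1 nor Sox2 did. Insm1 gave -0.64 without the aged library, where it did not pass, and -1.55 without the middle-aged one.

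Ccnd2 (ENSMUSG00000000184, chr6:127125162-127152193), the cyclin D2 that carries progenitors through G1, had the lowest adjusted p of any gene. It stood at 2942, 3269 and 2902 CPM against 6736, 7113 and 6377 (-1.12 ± 0.04, adjusted p = 2.93e-20), and no value of 1 class reached the other. It was still common in the cells: after thinning 89.1%, 93.7% and 80.4% held a UMI, against 98.7%, 98.2% and 97.2% of the reference.

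Replication genes were lower where they changed, although Mki67 and Top2a were at 0 in both classes by the rule. The counts below stand beside 4.13% higher and 3.60% lower over all genes tested by edgeR. Of 25 S phase genes tested 11 were lower, none was higher and 14 did not pass (median log2 ratio -0.56), and DESeq2 called 1, Cdca7, at 367, 425 and 339 CPM against 618, 665 and 495 (-0.62 ± 0.08, adjusted p = 2.04e-06). Mcm2, a subunit of the replicative helicase, stood at 2.74, 10.0 and 7.82 against 34.5, 56.4 and 26.0 (-2.44 ± 0.39, adjusted p = 5.67e-05). Rrm2, a subunit of ribonucleotide reductase, was lower (-1.70 ± 0.29), but gave -0.86 and did not pass without the middle-aged library. Of 18 G2/M genes tested 3 were lower and none higher, and DESeq2 called 1 lower, Hmgb2, a chromatin protein of dividing cells, at 131, 118 and 128 against 264, 321 and 207 (-1.06 ± 0.13, adjusted p = 7.35e-07).

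**Figure D4:**
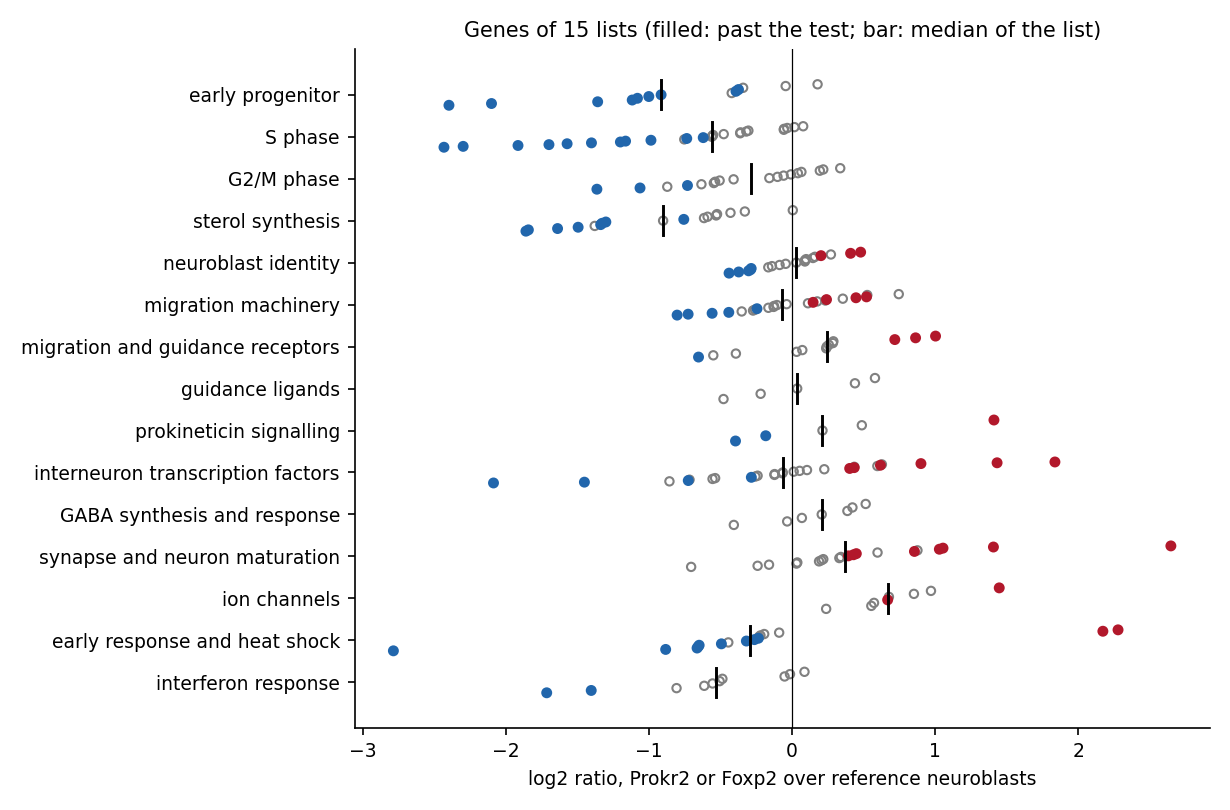
Log2 ratio of Prokr2 or Foxp2 over reference neuroblasts (x axis) for each tested gene of 15 lists (y axis), with Penk left out because 1 cell held it. Filled points passed edgeR's test (red higher, blue lower), open points did not, and the bar is the median of the list. The medians of the progenitor, S phase and sterol lists lie to the left, and all called synapse and ion channel genes to the right.

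Among the 12 largest decreases, 3 were enzymes that make cholesterol, Msmo1, Idi1 and Fdft1. A list of 19 enzymes of the pathway was therefore drawn up after these values were seen and is given as a description. Of 17 tested, 8 were lower and none higher, with a median log2 ratio of -0.90, and DESeq2 called 6 of the 8. Over all genes, 3.60% were lower by edgeR and 0.494% by DESeq2. Hmgcs1, which opens the mevalonate pathway, stood at 84.9, 84.2 and 112 CPM against 257, 200.1 and 257 (-1.30 ± 0.14, adjusted p = 2.41e-08). Idi1, which isomerises the 5-carbon unit, stood at 35.6, 42.1 and 33.9 against 133, 107 and 124 (-1.64 ± 0.21, adjusted p = 7.13e-07). Msmo1 (ENSMUSG00000031604), which removes methyl groups from the sterol ring, stood at 32.8, 30.1 and 28.7 against 149, 88.8 and 111 (-1.86 ± 0.22, adjusted p = 2.06e-07). In each of these 3 the classes were apart in all libraries. Fdft1 (-1.50), Sqle (-1.34), Fdps (-1.33), Cyp51 (-0.76) and Nsdhl (-1.85) were the others, and Cyp51 gave -0.48 and did not pass without the adult library. After thinning Msmo1 gave -3.13 and Sqle -2.21.

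To show what lies before these genes, the 250 bases upstream of their RefSeq starts were read from a table of promoters (GRCm38.p6), which held 14 of the 19, 5 of them among the 8 called lower. The motifs searched, on both strands, were the sterol regulatory element TCACNCCAC, which SREBP factors bind, and the CCAAT box, CCAAT, which NF-Y binds. The first was found in 1 of the 14, Hmgcs1, and in 1.18% of 5349 tested genes with a promoter in the table. The second was found in 14 of the 14 and in 41.2% of the tested genes, and the letters alone do not show that a factor is bound. RefSeq starts need not be those of GENCODE vM21, which gave the gene coordinates used elsewhere: of the 5 stretches of genes called lower, those of Idi1, Cyp51 and Msmo1 lay for 105, 49 and 214 bases inside the GENCODE gene and are not shown. The other 2 are shown 5′ to 3′ in the direction of the gene, with motifs in capitals (ATTGG is CCAAT on the other strand), so that the repeats can be seen.
Hmgcs1 (chr13:119690101-119690350, plus strand): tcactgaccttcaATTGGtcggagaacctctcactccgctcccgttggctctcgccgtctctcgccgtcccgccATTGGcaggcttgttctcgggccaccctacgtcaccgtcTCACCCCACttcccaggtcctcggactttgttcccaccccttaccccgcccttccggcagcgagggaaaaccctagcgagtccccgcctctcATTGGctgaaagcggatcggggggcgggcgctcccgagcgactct
Nsdhl (chrX:72918271-72918520, plus strand): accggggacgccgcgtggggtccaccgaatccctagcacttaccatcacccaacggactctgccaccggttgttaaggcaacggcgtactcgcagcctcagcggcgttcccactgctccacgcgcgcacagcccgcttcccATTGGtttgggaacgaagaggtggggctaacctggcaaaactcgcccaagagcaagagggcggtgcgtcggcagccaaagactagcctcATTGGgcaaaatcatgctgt
Hmgcs1, given above, held 3 CCAAT boxes and 1 sterol regulatory element, and Nsdhl, which acts late in the pathway, 2 CCAAT boxes.

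The other large decreases were of varied roles. Ezr (ezrin), which ties membrane to actin, stood at 137, 92.2 and 88.6 CPM against 302, 303 and 272 (-1.46 ± 0.13, adjusted p = 9.84e-10). Mdk (midkine), a secreted growth factor of the embryonic brain, stood at 98.5, 86.2 and 62.5 against 268, 259 and 163 (-1.46 ± 0.14, adjusted p = 4.19e-09). Dbi, which binds acyl-CoA and modulates GABA receptors, stood at 49.3, 66.1 and 83.4 against 222, 192 and 156 (-1.48 ± 0.17, adjusted p = 2.06e-07). All 3 lay below the reference in each library, as did Clic1 (-1.75), Sox5 (-1.59), Shisa4 (-1.43) and Igfbp5 (-1.36). Shisa4 did not pass DESeq2 or after thinning.

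Genes that respond within minutes to handling also differed between the classes. Of 16 early response and heat shock genes tested, 9 were lower, among them Jun at 1538, 1293 and 1902 CPM against 2102, 1756 and 3024 (-0.49 ± 0.05) and Egr1 at 629.5, 581 and 584 against 758, 923 and 1251 (-0.67 ± 0.09). Atf3 was lowest, at 2.74, 4.01 and 18.2 against 26.2, 25.4 and 132 (-2.79 ± 0.34). Nr4a1 went the other way, at 54.7, 44.1 and 65.1 against 11.0, 8.45 and 17.4 (2.17 ± 0.30, adjusted p = 3.06e-06), and was the 1 gene higher by DESeq2, which called 2 lower, Jun and Atf3. Hspa1a was also called higher by edgeR, at 19.2, 8.02 and 245 against 6.90, 11.3 and 37.6, but it lay below the reference in the middle-aged library, did not pass DESeq2, and 1 cell held 36.2% of its UMIs. The summed list stood at 5099, 4768 and 6242 CPM against 6250 (adult), 6068 (middle-aged) and 9323 (aged), and its part in the other differences was not tested. Ribosomal protein genes, another share of RNA that follows cell state, were higher in 32 and lower in 0 of 78 (median log2 ratio 0.14), with 7 called by DESeq2. Beside this list and the early response list, the shares over all genes were 4.13% higher and 3.60% lower by edgeR.

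The cells were also compared by which transcript they held. The 12 leading increases were above and the 12 leading decreases below the reference in all 3 libraries in Prokr2-only cells, in Foxp2-only cells and in cells with both. They did so too in cells with a single UMI of the pair, in cells with 2 or more and in cells with Gad1, and in cells without Gad1 for all but Pcbp3. These genes were chosen on the pooled cells for moving one way in all 3 libraries, and each subset is a part of those cells. The counts were thus largely set by that choice and do not show that the subsets are alike.

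No single order of the 3 subsets held for all of these genes. Among the 12 leading decreases, cells with both transcripts were lowest in all 3 libraries for 4, Vim, Clic1, Ezr and Igfbp5. Foxp2-only cells were highest in all 3 libraries for 5 of these decreases, Vim, Msmo1, Sox5, Mdk and Igfbp5, and lowest for 0. Among the 12 leading increases, cells with both were highest in all 3 libraries for 1, Runx1t1, and lowest for 1, Bambi. Prokr2-only cells were highest for 2, Dusp26 and Sept6, and Foxp2-only cells lowest for 5, Pbx3, Ubash3b, Tshz1, Meg3 and Fam171b. Vim stood at 97.2, 40.7 and 44.3 CPM in Prokr2-only cells, at 151, 45.4 and 132 in Foxp2-only cells and at 13.4, 0 and 0 in cells with both. Ccnd2 stood at 3221, 3157 and 2115 in Prokr2-only cells, at 3130 (adult), 3832 (middle-aged) and 3471 (aged) in Foxp2-only cells and at 2126, 2283 and 2023 in cells with both. Pbx3 stood at 499.8, 569.8 and 952 in Prokr2-only cells, at 499, 463 and 475 in Foxp2-only cells and at 869, 883 and 830.4 in cells with both. For Ccnd2 too, cells with both were the lowest in each library.

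Prokr2-only and Foxp2-only cells themselves differed in few genes. Of 3286 genes tested over the 6 sums, 2 were higher in Prokr2-only cells (0.0609% of those tested) and 2 lower (0.0609%), 4 in all (0.122%), among which Penk came from the single cell above. DESeq2 called 0 in either direction, with 5 and 2 genes at an unadjusted p under 0.05 against 85 and 82 by edgeR. Synpr (synaptoporin), a synaptic vesicle protein of olfactory interneurons, stood at 249.9 (adult), 180.2 (middle-aged) and 409.7 (aged) CPM in Prokr2-only cells against 110 (adult), 145 (middle-aged) and 88.0 (aged) in Foxp2-only cells (1.21 ± 0.24, adjusted p = 0.00084). Meg3 gave 2999, 3448 and 5504 against 2489, 3220 and 3168 (0.40 ± 0.08, adjusted p = 0.00084). Neither passed without the aged library, and Synpr did not pass without the adult one. The other gene lower was Xist (-0.56 ± 0.13), which did not pass without the middle-aged library. With the striatal cell left out, Synpr and Meg3 were again higher, and Xist and Ccnd2 lower.

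Between ages, few genes of these cells passed a 2-fold ratio. Among 1229 genes with at least 100 UMIs over the adult and aged sums, 9 were at least 2-fold higher in the aged cells (0.732%) and 2 at least 2-fold lower (0.163%), 11 in all (0.895%), with a median log2 ratio of -0.03. Between middle-aged and adult cells 4 of 1445 were 2-fold higher (0.277%) and 1 lower (0.0692%), 5 in all (0.346%). Without the striatal cell, and so without Penk, 3 were higher and 1 lower. No test was made with 1 library per age, and the reference neuroblasts of the same libraries are given beside each value so that both classes of a library can be read together.

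Stress and interferon genes were among the highest ratios at 24 months. Hspa1a, the inducible heat shock protein, stood at 19.2, 8.02 and 245 CPM at 3, 14 and 24 months (log2 ratio aged over adult 3.68, 95% counting interval 2.58 to 5.03), while the reference gave 2.45 (1.04 to 4.18). It was found in 13 of the 107 aged cells, and 1 of them held 38 of the 94 UMIs. Without that cell, left out after its values were seen, the aged level was 147 CPM and the ratio 2.94 (1.80 to 4.32). Ifi27, an interferon-induced mitochondrial protein, stood at 57.5, 94.2 and 232, with a ratio of 2.01 (1.31 to 2.77) against 2.10 (1.54 to 2.70) in the reference. Usp18, which restrains interferon signalling, had 0, 9 and 23 UMIs, and the reference had 4, 38 and 53. With the adult value set at the floor of 3 counts, the aged level was 7.30-fold higher. The exact counting interval of this ratio began at a log2 ratio of 2.45. The interferon list as a whole stood at 137, 325 and 669.6 CPM in the cells and at 157, 538 and 843 in the reference. The aged value was the highest in both classes. Across the libraries 2 of 10 tested genes, Ifitm3 (-1.72 ± 0.42) and Irf9 (-1.41 ± 0.39), were lower in Prokr2 or Foxp2 neuroblasts by edgeR and none by DESeq2. Of all genes tested, 3.60% were lower by edgeR. Irf9 did not pass without the middle-aged library, nor in cells with at least 2 UMIs of Prokr2 and Foxp2, where it gave -0.77.

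Other genes past the 2-fold limit at 24 months included Rem2, a small GTPase that acts on calcium channels, at 52.0, 142 and 237 CPM (2.19, 1.46 to 2.99). The reference ratio for Rem2 was 0.96 (0.50 to 1.43). The counting intervals of the 2 classes did not overlap, and the difference was not tested. Dusp8, a phosphatase of stress kinases, stood at 118, 132 and 255 (1.12, 0.59 to 1.67), against 0.77 (0.46 to 1.08) in the reference. PISD stood at 164, 313 and 521 (1.67, 1.24 to 2.11), against 1.99 (1.64 to 2.36) in the reference. Xist, the RNA that coats the inactive X chromosome, stood at 465, 1032 and 1180 (1.34, 1.09 to 1.61), against 0.89 (0.70 to 1.08) in the reference. By the study's methods males and females were spread evenly over the ages, and the part of the mice in each pool in the Xist values was not tested. The remaining 3 were Klf6 with 1.03 against 0.75 in the reference, Churc1 with 1.06 against 0.98 and Sag with 1.00 against 1.12.

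The 2 genes at least 2-fold lower at 24 months were Sp8 and Idh2. Sp8, a transcription factor of calretinin interneurons, stood at 312, 200.4 and 138 CPM (-1.18, -1.67 to -0.69), against -0.82 (-1.17 to -0.48) in the reference. Idh2, a mitochondrial isocitrate dehydrogenase, stood at 189, 134 and 91.2 (-1.05, -1.68 to -0.44), against -0.17 (-0.57 to 0.23) in the reference.

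Other genes of neuroblasts gave smaller ratios, or ratios on fewer UMIs. Tubb3 gave -0.37 (-0.49 to -0.25) in the cells and -0.32 (-0.40 to -0.24) in the reference, and Stmn1 -0.26 (-0.34 to -0.18) and -0.24 (-0.30 to -0.18). Nr4a2, a nuclear receptor of neurons, gave 1.51 (0.38 to 2.79) on 9 and 27 UMIs, against 1.51 (0.48 to 2.66). Ccnd2 gave -0.02 (-0.14 to 0.10) against -0.08 (-0.14 to -0.02).

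**Figure D5:**
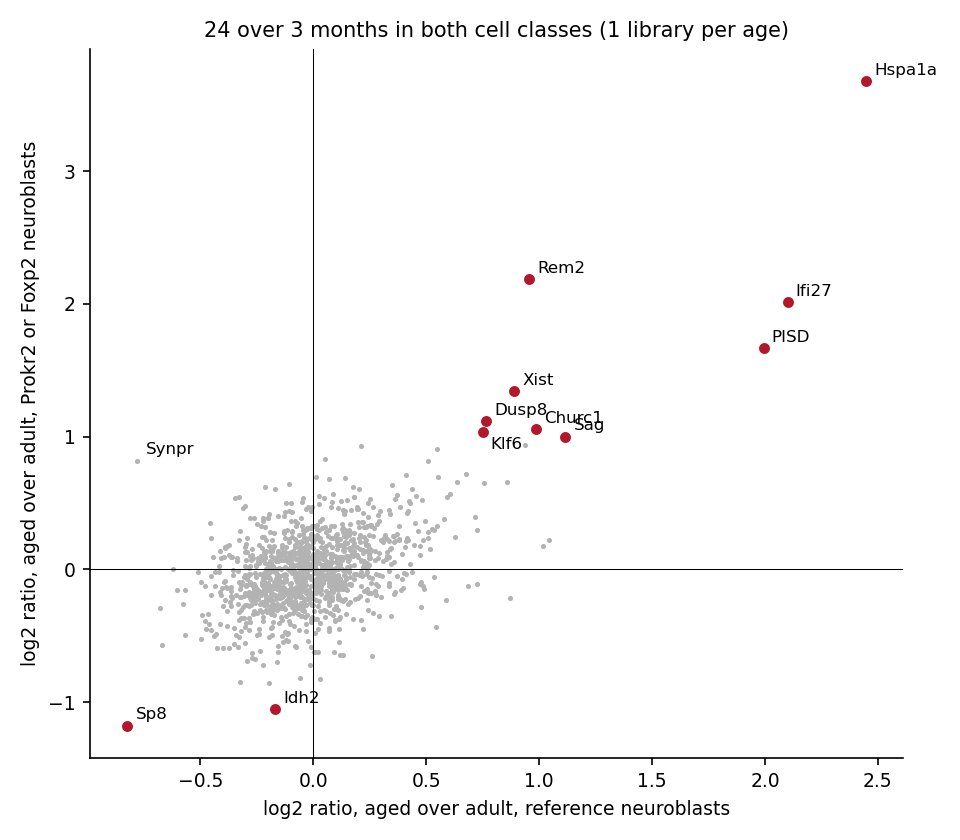
Log2 ratio of aged over adult level in reference neuroblasts (x axis) and in Prokr2 or Foxp2 neuroblasts (y axis) for genes with at least 100 UMIs in the latter. Red points lie past 2-fold in Prokr2 or Foxp2 neuroblasts, 9 above and 2 below. All 11 lie on the same side of 0 in both classes, though the reference interval of Idh2 includes 0. Synpr lies on opposite sides. Both axes rest on the same 1 library per age.

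At 14 months the genes at least 2-fold higher, apart from Penk and Xist, were Tiprl and Gsto1. Tiprl, a regulator of protein phosphatases, stood at 71.2, 174 and 109 CPM over the 3 ages, with a log2 ratio of middle-aged over adult cells of 1.29 (0.65 to 1.98) against 0.08 (-0.35 to 0.51) in the reference. Gsto1, a glutathione transferase, stood at 73.9, 168 and 162, with 1.19 (0.55 to 1.87) against 0.64 (0.03 to 1.27).

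In the OB, where SVZ neuroblasts end their migration, the same rule found 9 of 79 Dcx cells (adult), 7 of 80 (middle-aged) and 14 of 54 (aged). These 30 cells were too few for a test, and sums over the 3 libraries are given as a description. Prokr2-only cells were 73.3% of the 30 (54.1 to 87.7) in the OB and 28.3% (23.8 to 33.2) in the SVZ. Of the 12 leading increases of the SVZ 9 were also above the OB reference and 3, Socs2, Dusp26 and Pcbp3, below, and of the 12 leading decreases all 12 were below. In each OB library taken alone, 4 of the 12 increases (Plekha1, Tshz1, Fam171b and Sept6) and 6 of the 12 decreases kept the direction of the SVZ in all 3. Of the 6884 genes tested in the SVZ, 47.3% were above and 52.6% below the OB reference over the sums, and 11.5% were above and 17.2% below in all 3 libraries. Pbx3 stood below the reference in the middle-aged OB (76.7 against 99.9 CPM), and Ezr above it in the aged OB (145 against 36.9). Tshz1 gave a log2 ratio of 1.60 (0.97 to 2.21) on 37 UMIs, Pbx3 1.28 (0.65 to 1.88) on 35, and Vim -1.85 (-4.17 to -0.23) on 3. The OB reference cells passed the same gate but may include more mature interneurons, so the ratios in the 2 regions rest on different references. In the dentate gyrus 1 of 55 Dcx cells met the rule.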

How the data were processed

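Single cells were sequenced by the authors with 10x Genomics 3′ v2 chemistry from pooled tissue and counted with Cell Ranger (3.0.2 per the file headers) on mm10 (per the labels and methods). The deposited values are raw UMI counts for 27998 genes. Members, gene lists and comparisons were chosen with earlier results of these data known, and members used to complete a count were named after their values were seen. Named genes were the 12 largest increases and 12 largest decreases among called genes with at least 200 UMIs, and members of the lists. Genes with at least 50 UMIs were tested, on UMIs summed per class and library, with edgeR 4.0.16 (quasi-likelihood, Benjamini-Hochberg adjustment), with DESeq2 1.42.0 as an alternative. The reported p-values set the class difference against its spread over 3 pooled libraries that also differ in age. In edgeR this spread is shared between genes (median prior degrees of freedom 30.4), so the p-values rest in large part on other genes. Each SE was derived from the log2 ratio and the test statistic. Deviations of the 2 classes from their own means correlated within each library (r = 0.193, 0.215 and 0.252 over 6888 genes), and both classes of a library came from the same mice, so the library was kept as a block. Age ratios have exact 95% intervals for counting error, with a floor of 3 counts for zeros. Scrublet marked 3, 4 and 3 SVZ barcodes, which were kept. The OB test was not run, since a sum held fewer than 10 cells. Some genes are not reported here.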

Additional observations from a re-analysis of the deposited data

Results flagged for a closer look

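Synpr had opposite ratios between ages in the 2 classes. Aged over adult, it gave a log2 ratio of 0.82 (95% counting interval 0.30 to 1.36) in Prokr2 or Foxp2 neuroblasts and -0.78 (-1.31 to -0.27) in reference neuroblasts. By subset the values rest on few UMIs and were not tested. From the adult to the aged library, Synpr went from 249.9 CPM (18 UMIs) to 409.7 (37 UMIs) in Prokr2-only cells. In cells with both it went from 80.2 (6 UMIs) to 483 (32 UMIs). The middle-aged values of these 2 subsets were 180.2 and 187.9 CPM. In Foxp2-only cells Synpr went from 110 (24 UMIs) to 88.0 (20 UMIs), the direction of the reference. Actg1, an actin gene, gave -0.15 (-0.25 to -0.05) and 0.10 (0.04 to 0.17). These were 2 of 1223 genes compared, and with 1 library per age the difference was not tested.

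Some cells with Prokr2 or Foxp2 lay outside the comparisons. In the OB they were 14.1% of Dcx cells past the same limits (9.71 to 19.5). Of the oligodendrocyte precursors there, 0 of 15 held either transcript, which by the same floor as in the SVZ allows a share of up to 20.0%. This limit lies above 14.1%, so the precursors were too few to set the OB share apart from free RNA. In the SVZ 72 Dcx cells with Prokr2 or Foxp2 were left out for a UMI of Mki67 or Top2a, and 96 cells held Prokr2 or Foxp2 with no UMI of Dcx.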

How the results depend on the processing

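Of 79 genes named by the rule and called by edgeR, 31 were called by DESeq2, and none changed direction under a setting that gave it a value, which thinning did for 58 of the 79, a limit of at least 200 UMIs for 52 and leaving out a library for 70 to 73. The 12 leading increases and 12 leading decreases were all called under each setting run except DESeq2 (20 of 24), thinning (22) and without the aged library (23). Against reference neuroblasts, the counts of genes higher and lower were 43 and 34 by DESeq2 and 90 and 89 after thinning. With a reference with or without Gad1 they were 455 and 430. The median dispersion over genes was 0.0987 in DESeq2 and the common dispersion 0.00111 in edgeR, which are unlike measures. With at least 3000 UMIs per cell 157 genes were lower. Leaving out a library gave 203 to 247 higher and 137 to 197 lower, the 137 without the middle-aged one. With at least 3000 UMIs per cell Dclk1, Epha4, Erbb4, Etv1, Gnas, Grin2b, Gsx2, Ifitm3, Irf9, Notch1, Nsdhl, Plcb4 and Sox2 did not pass, in cells with at least 2 UMIs of Prokr2 and Foxp2 Erbb4, Grin2b, Gsx2, Hes5, Insm1, Irf9, Prox1 and Sox2 did not, and in cells with Gad1 Dclk1, Epha4, Grin2b, Insm1, Irf9, Notch1 and Sox2 did not. Etv1, Gnas and Sox2 also did not pass after thinning, and Grin2b and Notch1 not without the striatal cell. In cells with at least 2 UMIs Sox5 gave -2.40, Igfbp5 -2.49, Notch1 -1.49 and Epha4 -1.57. Without the library block, which pairs the classes of a library, the counts were 109 and 79, and 0 and 0 for Prokr2-only over Foxp2-only cells.

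For Prokr2-only over Foxp2-only cells, 0 and 0 genes passed by DESeq2, 1 and 5 with at least 10 UMIs, 1 and 1 with at least 200, and 0 and 1 after thinning. The 5 lower with at least 10 UMIs included Penk and Ppp1r1b, whose UMIs came from the striatal cell. Leaving out a library gave 0 to 2 higher and 0 to 4 lower, with Penk among those lower without the adult or the aged library. Aged over adult, 31 and 18 genes passed 2-fold with at least 50 UMIs, 2 and 0 with at least 200, 2 and 0 after thinning, and 3 and 1 with at least 3000 UMIs per cell. Middle-aged over adult, these were 17 and 14 with at least 50 UMIs and 1 and 0 with at least 200. There, 2 were higher with at least 3000 UMIs per cell and 2 lower with at most 5% mitochondrial UMIs. The share of Dcx cells was 19.6%, 28.7% and 23.6% after thinning, and 27.8%, 27.7% and 30.5% with at least 3000 UMIs per cell. Over all cells past the quality limits, it was 13.8%, 19.5% and 14.3%. This denominator, leaving out the striatal cell and leaving out the Hspa1a cell were chosen after seeing the data. The cause of these changes was not tested. Alternatives for the OB were not run, for lack of cells. At 1 UMI in 190 of 367 cells, depth may limit which neuroblasts are recognised.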
